A study of Homo sapiens with 9 samples.

Results

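The NR4A nuclear receptors are 3 genes, NR4A1, NR4A2 and NR4A3, and each was matched by symbol and Ensembl identifier to its row among the 19569 genes of a count table, of which 12036 were tested. The table covers 9 mRNA libraries of Jurkat Clone E6-1, an established human leukaemic T-cell line whose cells are T lymphoblasts. Cells were grown in RPMI medium with serum and were either left non-activated (0 h, 3 libraries) or activated for 5 h (3 libraries) or 12 h (3 libraries). For activation, wells carried a coat of anti-CD3 (10 µg/mL) and the medium held anti-CD28 (5 µg/mL), antibodies that stand in for antigen and costimulation. The labels name the replicates biological but do not say that they were separate cultures, so the p-values here speak only to the spread among these 9 libraries, and that spread may be technical. No group was cultured for 5 h or 12 h without antibodies, so effects of activation and of handling or time in the wells cannot be told apart. The line is a single clone of a leukaemia.

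NR4A receptors are transcription factors of the nuclear receptor superfamily that act without a known physiological ligand, so their activity follows largely from how much protein is made. All 3 bind a shared DNA element, the NBRE, as monomers, and NR4A1 and NR4A2 can also pair with retinoid X receptors (RXR). In T cells they are immediate-early genes of T-cell receptor signalling: NR4A1 reporters are used to read signal strength, and the family is known for roles in clonal deletion of thymocytes, in tolerance and in exhaustion.

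Total counts per library ran from 4222258 to 9359187. Levels are given as CPM, counts per 1000000 of a library size scaled by TMM, a normalization that equalizes most genes between libraries. All 14 T-cell marker genes had counts and were tested, and their summed level was 6494.9 to 7480.8 CPM at 0 h, 7009.7 to 8094.6 at 5 h and 6800.4 to 7760.5 at 12 h. Of 18 markers of other blood cells, 4 were tested, ELANE and HBB had no count in any library, and CD79A, a B-cell receptor chain gene, was at a mean of 176.9 CPM at 0 h, 101.3 at 5 h and 142.3 at 12 h. The summed level of the 18 was 173.7 to 216.9 CPM at 0 h, 112.0 to 139.5 at 5 h and 151.8 to 176.7 at 12 h, and its part in the results was not tested. These are bulk libraries, in which more RNA per cell and more cells with a transcript cannot be told apart.

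The part of each receptor that contacts DNA holds a pair of zinc fingers, and its coding sequence is shown because it is a conserved part of the family, in which reads could be shared between members. The stretch runs from the first to the last zinc-binding cysteine, over 168 bases or 56 residues, and was found by its spacing of cysteines in GENCODE 29 transcripts (GRCh38). In NR4A1 it lies in exons 3 to 4 of 8 of ENST00000243050.5 (chr12:52055127-52056119, plus strand), in NR4A2 in exons 3 to 4 of 8 of ENST00000339562.8 (chr2:156328444-156329400, minus strand) and in NR4A3 in exons 4 to 5 of 9 of ENST00000618101.4 (chr9:99828916-99832778, plus strand). Introns are left out, the letters run 5′ to 3′ on the coding strand, and capitals mark the 44 positions at which any of the 3 differs.
NR4A1: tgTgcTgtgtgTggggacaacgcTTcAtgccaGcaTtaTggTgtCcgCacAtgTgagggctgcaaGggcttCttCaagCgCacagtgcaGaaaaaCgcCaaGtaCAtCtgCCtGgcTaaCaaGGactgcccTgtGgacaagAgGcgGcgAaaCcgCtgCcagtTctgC
NR4A2: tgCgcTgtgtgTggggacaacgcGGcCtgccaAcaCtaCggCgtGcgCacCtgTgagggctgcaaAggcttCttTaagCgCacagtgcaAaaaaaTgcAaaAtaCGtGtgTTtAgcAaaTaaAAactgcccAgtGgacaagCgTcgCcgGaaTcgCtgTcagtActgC
NR4A3: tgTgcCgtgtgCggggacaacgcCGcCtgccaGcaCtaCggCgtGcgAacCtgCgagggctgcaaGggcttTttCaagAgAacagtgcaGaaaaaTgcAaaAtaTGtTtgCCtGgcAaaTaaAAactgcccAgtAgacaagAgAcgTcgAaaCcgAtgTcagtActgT
NR4A2 and NR4A3 shared 84.5% of these bases and all 56 encoded residues. NR4A1 shared 80.4% of the bases and 92.9% of the residues with each of the others, with 4 residues differing. The 26 base differences between NR4A2 and NR4A3 therefore leave every residue of the stretch unchanged. Over whole transcripts, the longest exact run was 20 bases for NR4A1 with NR4A2, 17 for NR4A1 with NR4A3 and 20 for NR4A2 with NR4A3. Read length, and how reads with several matches were assigned, were not given in the sources used here.

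NR4A1 (ENSG00000123358.20, chr12:52022832-52059507 on GRCh38, plus strand) encodes the receptor also called Nur77 and has 22 annotated transcripts with 19 start positions. Its level was 8.69, 9.72 and 9.15 CPM in the 3 libraries at 0 h, 1349.6, 1477.8 and 1450.6 CPM at 5 h, and 173.3, 214.0 and 207.5 CPM at 12 h. These rest on 65 to 75 counts per library at 0 h, 8976 to 10935 at 5 h and 710 to 1963 at 12 h. Every library at 5 h lay above every library at 12 h, and those above every library at 0 h. The lowest of the 12 h libraries, replicate 1, was also the one with the fewest counts in all. A long noncoding RNA gene on the opposite strand, AC025259.3 (chr12:52058459-52059503), overlaps the 3′ end of NR4A1 and is not a row of the count table. The sources used here do not say whether counting used strand, so reads of both genes within this overlap cannot be told apart.

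NR4A2 (ENSG00000153234.15, chr2:156324432-156342348, minus strand) encodes Nurr1, which is best known for its role in dopaminergic neurons. It had 1, 2 and 0 counts in the 3 libraries at 0 h, or 0.128, 0.299 and 0.0 CPM, and a count of 0 in the third library allows up to 0.366 CPM. At 5 h it was at 27.2, 24.2 and 26.8 CPM (171 to 181 counts), and at 12 h at 1.71, 1.53 and 1.04 CPM (7 to 14 counts). The groups did not overlap, but the 0 h level is known only within wide limits.

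NR4A3 (ENSG00000119508.18, chr9:99821855-99866891, plus strand) encodes NOR1, and its 4 annotated transcripts begin at 2 positions. The libraries at 0 h held 8, 8 and 11 counts, or 1.02, 1.20 and 1.34 CPM. At 5 h the level was 640.4, 623.3 and 642.4 CPM (4100 to 4612 counts), and at 12 h it was 53.9, 51.8 and 51.5 CPM (221 to 475 counts). The 3 activated libraries of each time lay close together, and no group overlapped another.

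**Figure D1:**
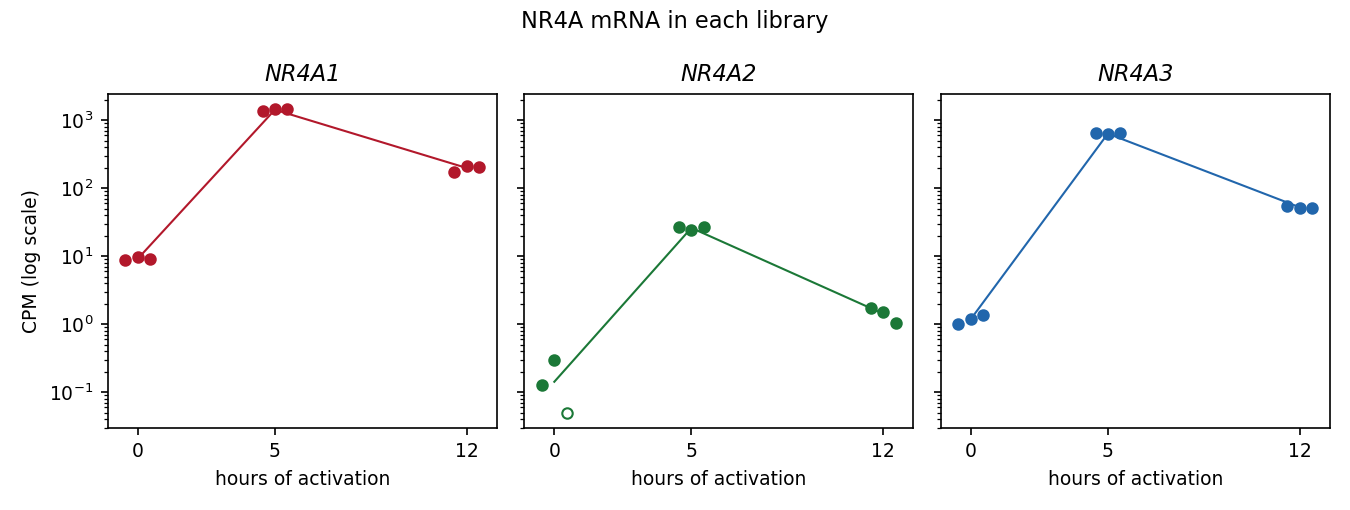
CPM (log scale) of NR4A1, NR4A2 and NR4A3 in each of the 9 libraries against hours of activation, with 1 point per library and a line through the group means; the open circle is the NR4A2 library with 0 counts, drawn at the foot of the axis. Each gene has its highest points at 5 h and its 12 h points between those of 5 h and 0 h.

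At 5 h, all 3 genes stood far above their 0 h levels, and each had risen. NR4A1 went from 9.19 ± 0.51 to 1426 ± 67.6 CPM (SD, n = 3 each), a log2 fold change of 7.28 ± 0.13 (SE; edgeR adjusted p = 5.06e-20), or 155.3-fold. NR4A2 went from 0.142 ± 0.15 to 26.1 ± 1.64 CPM, a log2 fold change of 7.44 ± 0.35 (edgeR adjusted p = 2.52e-13). NR4A3 went from 1.19 ± 0.16 to 635.3 ± 10.5 CPM, a log2 fold change of 9.04 ± 0.14 (edgeR adjusted p = 6.76e-21), or 526.5-fold. Among the 12036 tested genes, 24.9% were called higher and 24.8% lower at 5 h, at an adjusted p under 0.05. By size of rise NR4A3 ranked 10, NR4A2 21 and NR4A1 22, and by p-value NR4A3 ranked 1 and NR4A1 2. NR4A2 and NR4A3 passed the filter on low counts only through the activated libraries, so their calls are given as descriptions of these genes and not as a count over the family. With 3 counts of NR4A2 in all at 0 h, the ratio of pooled CPM was 196.7 with a 95% exact counting interval of 66.95 to 956.9. For NR4A3, with 27 counts at 0 h, the ratio was 533.9 with an interval of 366.8 to 810.5. The SEs given for NR4A2 and NR4A3 derive from the F test and are narrower than these counting limits. Leaving out replicate 2 of 0 h raised the log2 fold change of NR4A2 to 8.34, and leaving out replicate 3 lowered it to 6.85.

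At 12 h the same 0 h libraries served as the reference, so this comparison is not independent of the one at 5 h. NR4A1 was at 198.3 ± 21.9 CPM (SD, n = 3), a log2 fold change over 0 h of 4.44 ± 0.12 (edgeR adjusted p = 1.34e-16). NR4A2 was at 1.42 ± 0.35 CPM, with a log2 fold change of 3.24 ± 0.61 (edgeR adjusted p = 1.66e-04). NR4A3 was at 52.4 ± 1.32 CPM, with a log2 fold change of 5.44 ± 0.16 (edgeR adjusted p = 2.39e-16). Each gene had thus risen over 0 h. Of all tested genes, 26.3% were called higher and 24.8% lower. As at 5 h, these calls describe each gene and are not a count over the family. NR4A2 and NR4A3 passed the filter only through the activated libraries. By size of rise the genes ranked 55 (NR4A1), 105 (NR4A2) and 26 (NR4A3). The ratio of pooled CPM for NR4A2, from 3 counts at 0 h and 28 at 12 h, was 10.59 with a counting interval of 3.27 to 54.41. For NR4A3 the ratio was 43.86 with an interval of 29.97 to 66.87. Both intervals are wider than the SEs imply. Without replicate 2 of 0 h the log2 fold change of NR4A2 was 4.15, and without replicate 3 it was 2.65.

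Between 5 h and 12 h each gene fell. The log2 fold change was -2.84 ± 0.10 for NR4A1 (edgeR adjusted p = 1.84e-14), -4.20 ± 0.24 for NR4A2 (edgeR adjusted p = 7.44e-11) and -3.60 ± 0.09 for NR4A3 (edgeR adjusted p = 9.85e-17). In this comparison 18.1% of tested genes were called higher at 12 h and 18.0% lower. By size of fall NR4A2 ranked 4, NR4A3 10 and NR4A1 20. The 12 h mean was 13.9% of the 5 h mean for NR4A1, 5.46% for NR4A2 and 8.25% for NR4A3. At 12 h the receptors were therefore between their 0 h and 5 h levels, in every library.

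**Figure D2:**
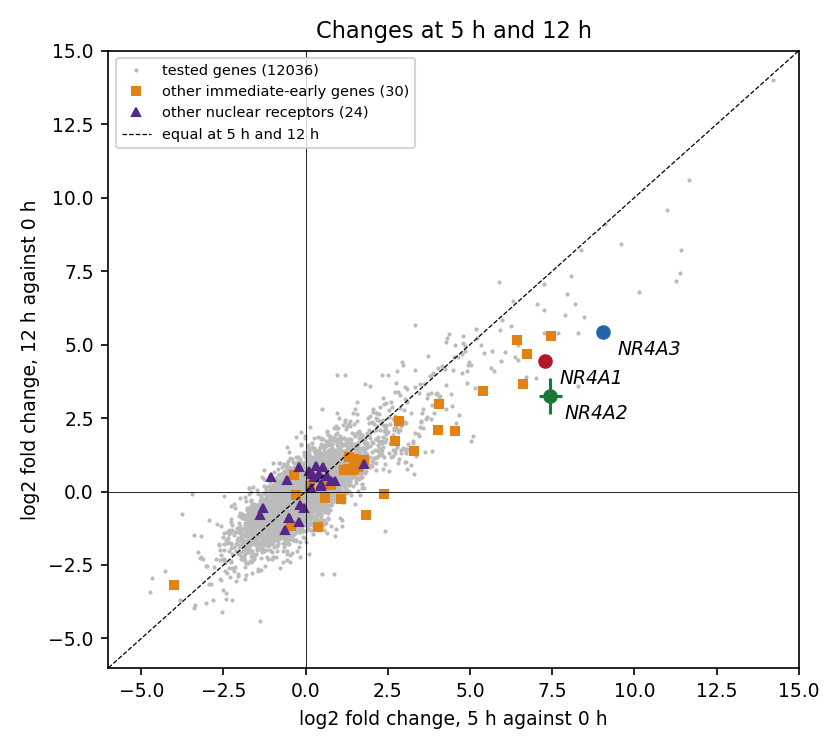
Log2 fold change at 5 h (x axis) and at 12 h (y axis) against the same 0 h libraries, for 12036 tested genes in grey, 30 other immediate-early genes as squares, 24 other nuclear receptors as triangles and the NR4A genes as labelled circles with bars of 1 SE; the dashed line marks equal changes. NR4A1, NR4A2 and NR4A3 lie right of 7 on the x axis and below the dashed line, with NR4A2 lowest of them at 12 h.

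To compare levels between the genes, CPM was divided by the merged exon length, which is 7295 bases for NR4A1, 3967 for NR4A2 and 6314 for NR4A3. Per kilobase, NR4A1 was highest at each time, with a mean of 1.26 CPM per kb at 0 h, 195.5 at 5 h and 27.2 at 12 h. NR4A3 was next, at 0.188, 100.6 and 8.30 CPM per kb, and NR4A2 was lowest, at 0.0359, 6.57 and 0.359. The ranges over libraries did not overlap between neighbours in this order at any time; at 5 h they were 185.0 to 202.6 for NR4A1, 98.72 to 101.7 for NR4A3 and 6.10 to 6.86 for NR4A2. Among 12019 tested genes with a length, NR4A1 ranked 10156 from the highest at 0 h, 114 at 5 h and 1564 at 12 h. NR4A3 ranked 11784, 269 and 5486, and NR4A2 ranked 11980, 6323 and 11428. So at 5 h NR4A1 and NR4A3 stood among the more abundant messages, and NR4A2 near the middle.

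The make-up of the family differed between the times. Of the summed CPM per kb of the 3 genes, NR4A3 held 12.7% ± 1.57 at 0 h (SD, n = 3), 33.3% ± 1.24 at 5 h and 23.3% ± 2.45 at 12 h. NR4A1 held 85.0% ± 1.37, 64.6% ± 1.42 and 75.7% ± 2.70. NR4A2 held 2.35% ± 2.36, 2.17% ± 0.18 and 1.01% ± 0.30. The ranges of the NR4A3 share did not overlap between any of the times, and those of NR4A2 overlapped between 0 h and the later times. These shares rest on merged exon lengths, and their SD does not cover that choice. With the longest protein-coding transcript, the log2 level of NR4A3 over NR4A1 at 5 h was -1.87 in place of -0.96. The NR4A3 share would then be smaller. On log2(CPM + 0.5), the ratio of NR4A3 to NR4A1 was 1.36 ± 0.08 (SE) higher at 5 h than at 0 h, 0.62 ± 0.13 higher at 12 h than at 0 h and 0.74 lower at 12 h than at 5 h (log2 difference of -0.74 ± 0.13). Each has an exact two-sided permutation p = 0.1, the smallest that 3 against 3 libraries allow, and 0.112 adjusted over 9 ratio comparisons. Without a pseudocount, a setting added after the data were seen, these differences were 1.79, 1.05 and -0.75, and with CPM + 2 the one at 12 h against 0 h was -0.06, opposite in sign. The ratio of NR4A2 to NR4A1 was lower at 12 h than at 5 h by 0.95 on the log2(CPM + 0.5) scale (-0.95 ± 0.24, exact permutation p = 0.1), with no overlap of libraries. With CPM + 2 this difference was -0.2 (exact permutation p = 0.3), so its size depends on the pseudocount. The ratio of NR4A3 to NR4A2 differed by 0.22 ± 0.15 between 12 h and 5 h (exact permutation p = 0.2). Against 0 h, ratios with NR4A2 also depend on the pseudocount of 0.5, which exceeds each 0 h level of NR4A2. With that pseudocount the ratio to NR4A1 differed by -1.81 at 5 h and -2.76 at 12 h, and NR4A3 to NR4A2 by 3.17 and 3.38, each with an exact permutation p = 0.1. The edgeR fold changes of NR4A2 and NR4A1 at 5 h, 7.44 and 7.28, stood in the opposite order to that ratio.

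The promoter is shown for NR4A3, the gene with the greatest fold rise of the 3, because its bases carry repeated copies of TGACG, the core of the cAMP response element (CRE) that CREB-family factors bind. In the table of RefSeq promoters (GRCh38.p14), each window spans 250 bases before to 50 after a start, and windows matched 2 of the 3 members: 1 for NR4A3 and 2 for NR4A1. The 130 bases before the RefSeq start of NR4A3 (chr9:99821755-99821884, plus strand, 5′ to 3′) follow, with capitals on the core TGACG or its reverse complement CGTCA. GENCODE places the first base of NR4A3 inside this stretch, at 99821855.
NR4A3: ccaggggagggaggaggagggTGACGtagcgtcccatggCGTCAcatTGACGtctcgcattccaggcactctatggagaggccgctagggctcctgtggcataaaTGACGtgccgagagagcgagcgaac
The cores begin at -109, -91, -83 and -25 relative to the RefSeq start. Among 35116 windows of 300 bases, searched on both strands, 24.55% hold at least 1 TGACG and 0.313% hold 4 or more. The cut of 4 equals the number in the NR4A3 window, which is shown because of these copies. That share is therefore a description and not a test. A full CRE, which contains the core, is in 1.85% of windows and not in that of NR4A3. The NFAT core GGAAA occurs 1 time in the NR4A3 window and is in 61.21% of windows. Neither NR4A1 window holds TGACG, and 1 of them holds a single GGAAA. The NR4A1 windows begin at 52022582 and 52037465 on chromosome 12 and represent 2 of its many starts. Neither lies at the start of the reference mRNA of NR4A1, so the promoter there was not searched. None of the windows had a match to the AP-1 site TGANTCA (7.71% of windows), the serum response element (1.29%), the MEF2 site (2.99%), the EGR site (9.43%), the NF-kappaB site (11.27%) or the NBRE (1.22%). These are matches of letters and say nothing of binding.

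The 3′ untranslated regions were searched for ATTTA, the core of AU-rich elements that are known to mark short-lived messages. One annotated GENCODE 29 transcript per gene was used. NR4A1 has 3 matches in 563 bases, NR4A2 has 4 in 1312 and NR4A3 has 10 in 3024. Their densities of 5.33, 3.05 and 3.31 per kb compare with a median of 1.63 over 11890 tested genes, and exceed those of 92.1%, 73.1% and 76.6% of the genes. At least 1 ATTTA is present in 71.2% of genes. The longer AU-rich nonamer is absent from all 3 and present in 20.3% of genes.

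The other nuclear receptors put the NR4A values in the context of their superfamily. Of 48 superfamily genes, 40 had counts and 27 were tested. Among the 24 tested receptors outside NR4A, 9 were called higher and 4 lower at 5 h, with a median log2 fold change of 0.13 against 0.001 over all tested genes, of which 24.9% were called higher and 24.8% lower. At 12 h, 11 were higher and 6 lower than at 0 h (median 0.37 against -0.001), beside 26.3% and 24.8% of all tested genes. Between 5 h and 12 h, 9 were higher and 4 lower (median -0.07 against 0.007), beside 18.1% and 18.0%. The filter on low counts let 4 of the 24 through by their activated libraries alone (VDR, ESR1, ESR2 and ESRRB), and of these VDR was called higher at both times. After the NR4A genes, the highest change at 5 h was that of VDR, the vitamin D receptor, at 1.79 ± 0.32 on the log2 scale (edgeR adjusted p = 1.18e-04); it was chosen after its value was seen. PPARA, a fatty acid sensor, fell most at 5 h, by 1.39 on the log2 scale, from 56.7 ± 3.46 to 21.6 ± 1.74 CPM (edgeR adjusted p = 1.93e-09). THRA, a thyroid hormone receptor, fell by 1.30, from 20.5 ± 1.59 to 8.37 ± 1.92 CPM (edgeR adjusted p = 2.55e-06). RXRA, which encodes a retinoid X receptor that pairs with NR4A1 and NR4A2, fell at both times, from 9.01 ± 1.62 CPM to 5.82 ± 1.32 at 5 h and 3.65 ± 0.85 at 12 h. Its log2 fold changes were -0.64 at 5 h (edgeR adjusted p = 2.95e-02) and -1.31 at 12 h (edgeR adjusted p = 2.25e-04). The related RXRB rose from 43.0 ± 1.31 to 53.3 ± 6.5 and 77.9 ± 6.93 CPM (log2 fold changes 0.31 and 0.86). RARG, a retinoic acid receptor, was lower at 12 h than at 0 h, with a log2 fold change of -0.90 (edgeR adjusted p = 7.71e-03).

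**Figure D3:**
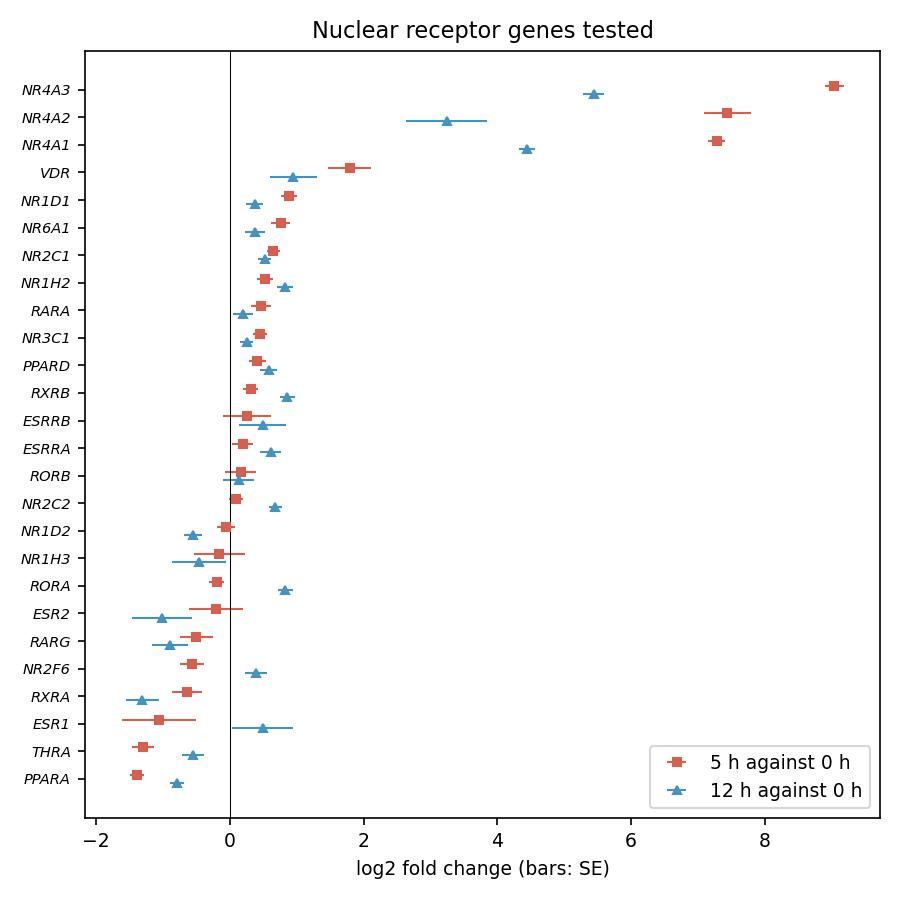
Log2 fold change (x axis, bars of 1 SE) at 5 h (squares) and at 12 h (triangles) against the same 0 h libraries for 26 of the 27 tested nuclear receptor genes, ordered by the 5 h value. The NR4A genes lie at 7.28 to 9.04 at 5 h, and the next, VDR, at 1.79.

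Genes whose products act on NR4A transcription (calcineurin, NFAT, MEF2, class IIa histone deacetylases, CREB, serum response factors and the ERK5 pathway) had called changes at 5 h between -0.73 and 1.73 on the log2 scale. Of 31 tested, 13 were called higher and 4 lower at 5 h (median log2 fold change 0.23), and 16 higher and 3 lower at 12 h (median 0.24). Between 5 h and 12 h, 8 were higher and 6 lower (median 0.03). Over all tested genes the shares higher and lower were 24.9% and 24.8% at 5 h, 26.3% and 24.8% at 12 h, and 18.1% and 18.0% between these times. CREM, a CREB-family gene, had the highest change at 5 h, from 7.23 ± 0.89 to 24.1 ± 0.96 CPM (log2 fold change 1.73 ± 0.17, edgeR adjusted p = 4.04e-08), and stood at 12.1 ± 2.96 CPM at 12 h. NFATC1, a calcineurin-dependent factor, stood at 41.3 ± 5.08, 113.2 ± 5.57 and 47.1 ± 2.18 CPM at 0, 5 and 12 h, with log2 fold changes of 1.45 at 5 h (edgeR adjusted p = 1.94e-10) and 0.19 at 12 h (edgeR adjusted p = 0.137). ELK1, a partner of serum response factor, rose by 1.09 at 5 h and 1.01 at 12 h on the log2 scale. MAPK7, which encodes ERK5, and MAP2K5, its activating kinase, fell at 5 h, by 0.73 and 0.57. PRKD2, a kinase that phosphorylates class IIa histone deacetylases, fell by 0.35 at 5 h and was higher at 12 h, with a log2 fold change of 0.40 over 0 h.

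Of 27 tested genes for proteins that bind or modify NR4A receptors, 8 were called higher and 9 lower at 5 h (median log2 fold change 0.03), 7 higher and 8 lower at 12 h (median -0.10), and 5 higher and 6 lower between 5 h and 12 h (median -0.06). All tested genes were called higher and lower at 24.9% and 24.8%, 26.3% and 24.8%, and 18.1% and 18.0% in the same comparisons, and the list is not read as differing from them. The coactivator genes NCOA2 and NCOA3 rose at 5 h by 1.84 and 0.98 on the log2 scale and were still higher at 12 h, at 1.59 and 0.90. RCOR1, a corepressor recruited by NR4A2, rose by 1.08. RPS6KA1, the kinase RSK1, fell by 0.69 at 5 h.

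The other immediate-early genes include the EGR and FOS families, transcription factors made soon after a stimulus. Of 30 tested, 25 were called higher and 3 lower at 5 h (median log2 fold change 1.53), 17 higher and 4 lower at 12 h (median 0.79), and 2 higher and 22 lower at 12 h than at 5 h (median -0.79). Of all tested genes, 24.9% were called higher and 24.8% lower at 5 h, 26.3% and 24.8% at 12 h, and 18.1% and 18.0% between these times. Of the 30, EGR2, EGR3, EGR4, FOS, FOSB and IRF4 passed the filter only through the activated libraries, and these 6 are among the 25 higher at 5 h and 4 of them among the 17 higher at 12 h. The highest at 5 h were EGR2, EGR4 and EGR3. EGR2 stood at 0.401 ± 0.14 CPM at 0 h, 72.6 ± 1.75 at 5 h and 16.3 ± 1.93 at 12 h, with log2 fold changes of 7.45 ± 0.21 (edgeR adjusted p = 6.50e-17) and 5.28 ± 0.26 (edgeR adjusted p = 1.26e-12). EGR3 stood at 1.51 ± 0.70, 150.9 ± 15.02 and 19.5 ± 0.29 CPM (log2 fold changes 6.60 and 3.65). EGR4 had 1 count at 0 h and 134 at 5 h, a ratio of pooled CPM of 148.9 with a counting interval of 26.28 to 5926. In the other direction, KLF2, a factor of quiescent T cells, fell from 40.7 ± 0.15 to 2.49 ± 0.22 CPM at 5 h (log2 fold change -4.02, edgeR adjusted p = 8.07e-14). DUSP1, a phosphatase gene, and KLF6 fell by 0.46 and 0.36 at 5 h. With DESeq2, 1 of the list was called lower at 5 h in place of 3. DESeq2 called 5478 genes in all at 5 h, and edgeR 5985.

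Another list holds 29 genes that other work links to NR4A in T-cell tolerance and exhaustion. Of 22 tested, 17 were called higher and 3 lower at 5 h (median log2 fold change 2.57), 15 higher and 2 lower at 12 h (median 1.58), and 3 higher and 11 lower between 5 h and 12 h (median -0.74), beside 24.9% and 24.8%, 26.3% and 24.8%, and 18.1% and 18.0% of all tested genes. The activated libraries alone carried 9 of the 22 past the filter (IRF4, IKZF4, IL2RA, IL2, IFNG, TNF, TNFRSF9, EGR2 and EGR3). These 9 are among the 17 higher at 5 h, and 6 of them among the 15 higher at 12 h, so neither count nor median supports a direction for the list. EGR2, EGR3 and IRF4 are also among the immediate-early genes. IL2RA, the alpha chain of the interleukin-2 receptor, had no count at 0 h and stood at 338.6 CPM at 5 h and 294.1 at 12 h, at least 2561-fold and 2271-fold higher than a floor of 3 counts over the 0 h group. With IL2RA at that bound the list's medians were the same, 2.57 and 1.58. IL2 had 2 counts at 0 h and a level of 260.1 CPM at 5 h and 15.1 at 12 h; the ratio at 5 h was 2955 with a counting interval of 817.7 to 24410. TOX2, a relative of the exhaustion factor TOX, fell by 2.05 at 5 h and 2.89 at 12 h on the log2 scale. CD244, an inhibitory receptor gene, fell by 1.27 at 5 h and was higher than at 0 h by 0.42 at 12 h, and RUNX1 fell by 0.42 and 1.06.

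Among cell death genes linked to NR4A1, which is known to bind BCL2 at mitochondria, 11 of 20 tested were called higher and 4 lower at 5 h (median log2 fold change 0.65), and 11 higher and 2 lower at 12 h (median 0.57). Between 5 h and 12 h, 2 were higher and 5 lower (median -0.08). The shares of all tested genes called higher and lower were 24.9% and 24.8% at 5 h, 26.3% and 24.8% at 12 h, and 18.1% and 18.0% between these times. BCL2A1, FASLG and BBC3 passed the filter only through the activated libraries, and 2 of these 3 are among the 11 higher at each time. BCL2A1, a prosurvival gene, went from 0.453 ± 0.29 to 112.6 ± 21.9 CPM at 5 h and stood at 48.9 ± 3.47 CPM at 12 h (log2 fold changes 7.94 and 6.73). BCL2L11, which encodes the death-promoting protein BIM, went from 52.6 ± 6.48 to 429.1 ± 23.1 and 268.4 ± 15.5 CPM (log2 fold changes 3.03 and 2.35). FASLG, the ligand of the death receptor FAS, had 1 count at 0 h and 77 at 5 h (ratio of pooled CPM 85.58, counting interval 14.91 to 3423). BID fell by 1.11 at 5 h, GADD45B by 0.83, and BCL2 itself by 0.31. The members that rose thus include both prosurvival and death-promoting genes.

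Genes whose profile over the 9 libraries was nearest to each NR4A gene were ranked by the root-mean-square difference of log2 CPM (prior count of 2) after each gene was centred on its own mean, with the 3 NR4A genes left out of the ranking. For NR4A1 they were CCL4 at 0.289, IL3 at 0.308, EGR2 at 0.366, XIRP1 at 0.381 and CSF2 at 0.452. For NR4A2 they were CCL4L2 at 0.542, AREG at 0.704, TBX21 at 0.716, CSF2 at 0.742 and IFNG at 0.767. For NR4A3 they were IL2 at 0.324, IL3 at 0.597, CSF2 at 0.714, DUSP4 at 0.740 and CCL4 at 0.816. CCL4, IL3, CSF2, IFNG and IL2 encode secreted signals of activated T cells, TBX21 a factor of helper T cells of type 1, and DUSP4 a kinase phosphatase. IL3, CSF2 and CCL4L2 had no count at 0 h. Over the 0 h libraries together, CCL4 and IFNG had 3 counts each, XIRP1 and IL2 had 2 each and AREG had 1. The 0 h values of all these genes therefore depend strongly on the prior count. CCL4 and CCL4L2 are near-identical copies between which counting could split reads. Between the NR4A genes themselves the difference was 0.634 for NR4A1 and NR4A3, 1.007 for NR4A1 and NR4A2 and 1.43 for NR4A2 and NR4A3. With the family included, NR4A1 would have ranked 3 among the genes nearest to NR4A3, and the other pairs, as well as NR4A3 seen from NR4A1, would have ranked 10 or lower. All values share the same libraries, and the prior count compresses low levels. Ranking by Pearson's r shared none of the 5 genes for NR4A1 or NR4A2 and 1 for NR4A3 (IL2), and 41, 7 and 42 genes had an r over 0.99.

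**Figure D4:**
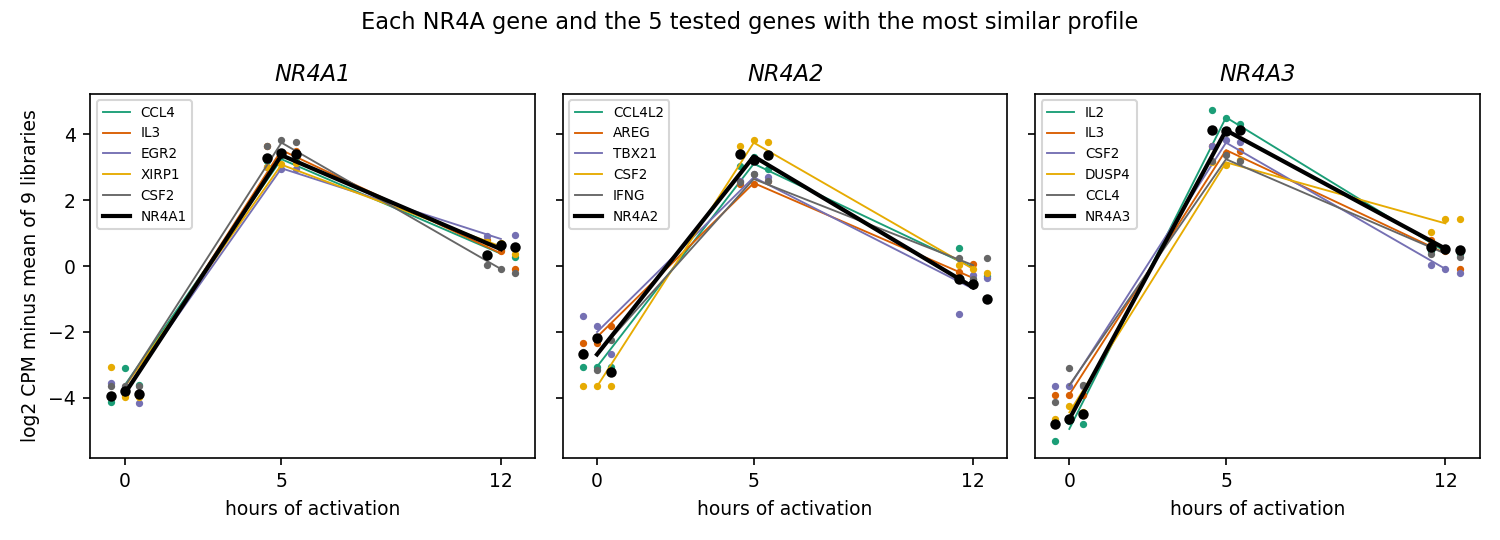
Log2 CPM minus its mean over the 9 libraries (y axis) against hours of activation for each NR4A gene (black) and the 5 tested genes outside the family nearest to it (coloured); points are libraries and lines join group means. The profiles peak at 5 h, and the differences from the NR4A gene run from 0.289 to 0.452 for NR4A1, 0.542 to 0.767 for NR4A2 and 0.324 to 0.816 for NR4A3.

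Genes next to NR4A1 and NR4A3 on the chromosome did not share the size of their rise. Within 500 kb of the NR4A1 start, 6 of 22 genes in the table were tested, and their log2 fold changes at 5 h ran from -0.96 to 0.48. SCN8A, a sodium channel gene (-0.47 ± 0.11, edgeR adjusted p = 1.56e-03), and FIGNL2 (-0.96 ± 0.36, edgeR adjusted p = 3.37e-02) were called lower, and the other 4 were not called. The nearest, TAMALIN, whose start lies 15.9 kb before that of NR4A1, was at 3.65 CPM at 0 h, 4.46 at 5 h and 3.96 at 12 h (log2 fold change at 5 h 0.27 ± 0.28, edgeR adjusted p = 0.454). Within 500 kb of NR4A3, 3 genes were in the table and tested. STX17, a membrane fusion gene 84.8 kb after the NR4A3 start, and ERP44, a chaperone gene, were called higher at 5 h, at 0.32 ± 0.10 (edgeR adjusted p = 1.02e-02) and 0.28 ± 0.09 (edgeR adjusted p = 2.01e-02). INVS was at 0.24 ± 0.12 (edgeR adjusted p = 0.104) at 5 h, and at 12 h it was called higher with the other two, at 0.63. Near NR4A2 the table holds GPD2, at 0.961 CPM at 0 h, 0.935 at 5 h and 0.670 at 12 h, which was too low to be tested.

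**Figure D5:**
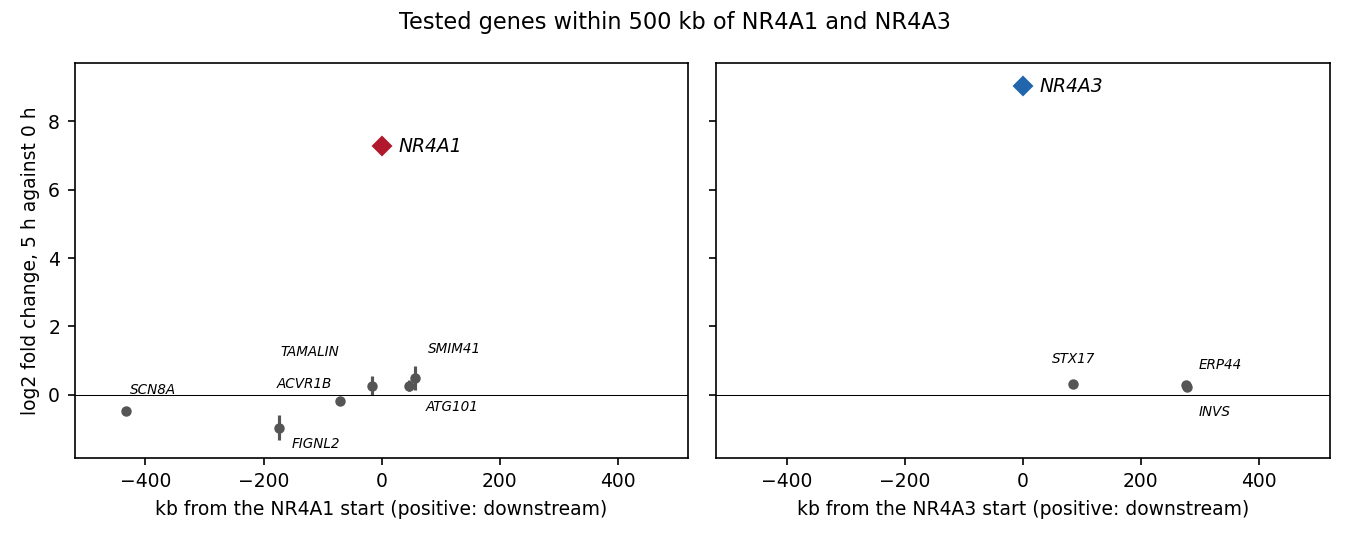
Log2 fold change at 5 h against 0 h (y axis, bars of 1 SE) of tested genes within 500 kb of NR4A1 (left) and NR4A3 (right), by the distance of their start from that of the NR4A gene in kb (x axis, positive downstream). The NR4A genes lie at 7.28 and 9.04 and the neighbours between -0.96 and 0.48.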

How the data were processed

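The authors deposited whole-number counts for each Ensembl gene. Per the submitters' processing notes, the tools were RSEM, cutadapt and DESeq2 and the build was GRCh38.p13, without roles or versions, and RSEM estimates may have been rounded. Aligner, annotation and strand setting were not given in the sources used here. The authors also deposited log2 values, which a test showed to be log2 of a scaled count plus 1 for the 12692 genes with a count in every library. NR4A2 is not among them.

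The 9 libraries entered 1 quasi-likelihood fit in edgeR 4.0.16 (R 4.3.3; limma 3.58.1) with TMM factors and filterByExpr at a minimum count of 10, and 12036 genes passed. Calls needed an adjusted p (Benjamini-Hochberg, over all of them) under 0.05. "Rose" and "fell" are used of called genes. Means are ± SD and edgeR fold changes ± SE. Each such SE, also in the figures, is the size of the log2 fold change over the square root of its F statistic. With few counts at 0 h it can be smaller than counting error. Intervals for low counts are exact 95% binomial ones and, like the limit of 3 counts behind a 0, cover counting error only. Replicates differed by more than sampling noise (chi-square over degrees of freedom 2.95 to 9.39), so each library counted once. The fit was tested on simulated data.

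The members, 8 gene lists, rules and tests were chosen with earlier results of these data known. Named genes were the 3 highest and 3 lowest called per list at 5 h (for receptors at 12 h too), the 5 nearest profiles per member outside the family, and called genes within 500 kb. CD79A, VDR, RXRB, the uncalled neighbours and genes listed as having passed the filter only through the activated libraries were named outside that rule after their values were seen. Of the genes this rule names, 2 are not reported here. Coordinates come from GENCODE 29. Alternatives were other size factors (RLE, upper quartile), no filter, DESeq2 1.42.0, limma on the deposited log2 values, the 2 groups alone, the replicate number as a block, each library left out, other pseudocounts and other transcript lengths. Ribosome profiling and small RNA data were not analysed here.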

Additional observations from a re-analysis of the deposited data

Results flagged for a closer look

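The change from 0 h differed between 5 h and 12 h for each NR4A gene, as tested by the contrast of 12 h with 5 h in the edgeR fit, in which the shared 0 h libraries drop out. The difference in log2 fold change was -2.84 for NR4A1, -4.20 for NR4A2 and -3.60 for NR4A3, and in each case 3 of 3 libraries at 12 h lay below 3 of 3 at 5 h.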

How the results depend on the processing

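Every alternative run for the fold changes of the NR4A genes kept their direction and call. Over these, NR4A1 ran from 7.19 to 7.32 at 5 h and from 4.37 to 4.51 at 12 h against 0 h, and NR4A3 from 8.90 to 9.15 and from 5.31 to 5.54. NR4A2 ran from 6.85 to 8.34 and from 2.65 to 4.15, with both ends set by leaving out 1 library of 0 h. Between 5 h and 12 h the ranges were -2.90 to -2.76 for NR4A1, -4.31 to -4.02 for NR4A2 and -3.62 to -3.58 for NR4A3. NR4A2 has no value on the deposited log2 scale, nor at 12 h in a fit of 2 groups alone. Genes called numbered 5139 to 6331 at 5 h (5985 in the main fit of all libraries), 5517 to 6499 at 12 h (6145) and 3284 to 4522 between them (4340). Ratios on log2(CPM + 2) changed sign for NR4A3 to NR4A1 at 12 h against 0 h (-0.06) and for NR4A3 to NR4A2 at 12 h against 5 h (-0.51), where the larger pseudocount weighs most on the lowest levels. For NR4A2 to NR4A1 at 12 h against 5 h the difference shrank from -0.95 to -0.2. Levels per length moved with the length used but not in order. The log2 level of NR4A3 over NR4A1 was -2.74 at 0 h, -0.96 at 5 h and -1.71 at 12 h with merged exons, -3.19, -1.40 and -2.16 with the longest transcript, and -3.65, -1.87 and -2.62 with the longest protein-coding transcript, which was added after the data were seen. NR4A2 over NR4A1 was -4.89 at 5 h and -6.24 at 12 h with merged exons, -5.30 at 5 h with the longest transcript, and -5.76 and -7.11 with the longest protein-coding one. Some small counts moved by over 1.5 times. With DESeq2, 1 other immediate-early gene was called lower at 5 h (3 in edgeR) and 2 receptors outside NR4A were lower at 12 h than at 5 h (4 in edgeR). With limma on the deposited log2 values, 5 proteins that bind or modify NR4A were called lower at 12 h (8 in edgeR). By limma, 5 inputs to NR4A transcription were higher at 12 h than at 5 h (8 in edgeR). Both methods also called fewer genes in all than edgeR. DESeq2 called 5478 at 5 h and 3843 between 5 h and 12 h. Limma, run on 12692 genes, called 5569 at 12 h and 3340 between 5 h and 12 h. Of 22 genes tested within 1000 kb of NR4A1, 4 were called higher and 9 lower at 5 h, with log2 fold changes of -2.11 to 1.34. Of 11 tested within 1000 kb of NR4A3, 3 were called higher and 5 lower. Within 200 kb, 1 of 5 tested neighbours of NR4A1 was lower, and the 1 tested neighbour of NR4A3 was higher. Of all tested genes, 24.9% were called higher and 24.8% lower at 5 h. Replicate numbers did not consistently pair the libraries. Same-numbered libraries correlated at -0.143 to 0.163, and 0 of 9 correlated best with its own number in both other groups. The libraries numbered 1 of 5 h and 12 h did correlate best with each other, at 0.163. With the replicate number as a block, NR4A1 was at 7.28, 4.43 and -2.85, NR4A2 at 7.44, 3.25 and -4.19 and NR4A3 at 9.04, 5.44 and -3.60 in the 3 comparisons, and genes called numbered 5981, 6176 and 4285. Depth limits NR4A2 at 0 h most, where 3 counts in 3 libraries set its level.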

Other observations

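Inhibitory receptor genes of T cells that other work places under NR4A control were at unequal levels in these cells. PDCD1, which encodes PD-1, stood at 2.47 CPM at 0 h, 30.8 at 5 h and 6.40 at 12 h, with a log2 fold change of 3.64 at 5 h (edgeR adjusted p = 2.10e-10) and -2.29 between 5 h and 12 h (edgeR adjusted p = 1.88e-07). HAVCR2, which encodes TIM-3, stood at 1.85, 9.81 and 8.77 CPM, and differed by -0.20 on the log2 scale between 5 h and 12 h (edgeR adjusted p = 0.523). LAG3 had 3 counts and TIGIT 1 in all 9 libraries together, too few to be tested. CTLA4 had 33 counts in all and was not tested. These genes were named after their values were seen.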
